A study of Solanum tuberosum with 2 samples.

Results

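Of the 40430 features in the expression table of in vitro potato (Solanum tuberosum cv. Desirée), 4 transcription factor (TF) genes were selected by identifier: ethylene-responsive TF 4-like (ERF 4-like, PGSC0003DMG400022823), ethylene-responsive TF 1B (ERF 1B, PGSC0003DMG400013255), probable WRKY TF 40 (WRKY40, PGSC0003DMG400007387) and heat stress TF C-1 (HSF C-1, PGSC0003DMG400000380). All 4 were in the table, under names taken from the study's annotation. The conditions were cut, wild-type single-node segments bearing a leaf that were excised from 4-w-old plantlets, and uncut, intact wild-type plantlets of the same age. Each condition was 1 mRNA library, in which the protocol pooled 3 biological replicates, so no difference has a replicate check, no p-value was computed, and the variation between plantlets was not measured. The labels give leaf as the tissue of both libraries, whereas the protocol describes whole plantlets and node segments. The effect of cutting and that of a different organ make-up cannot be told apart. The study chose HSF C-1 for its response to ultrasound in its 0 h comparison, and the other 3 genes in comparisons at later times. The 0 h control was non-ultrasonicated explants, which the study lists under other sample entries. It may have been the cut library analysed here, but this was not checked.

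ERF proteins carry an AP2/ERF DNA-binding domain and recognise the GCC box in promoters of genes that respond to ethylene, jasmonate, wounding and pathogens. In Arabidopsis, ERF1B activates defence genes downstream of ethylene, while ERF4 carries an EAR motif and represses GCC-box promoters. WRKY proteins bind the W-box. Arabidopsis WRKY40 is induced rapidly by wounding, pathogens and abscisic acid and acts mostly as a repressor. Heat stress TFs bind heat shock elements, and those of class C lack the activator motif found in class A members.

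The scaling totals were 33850938 reads in cut and 37955486 reads in uncut. Values are RPM, reads scaled to these totals, deposited on a log2 scale, from which the whole reads of each gene were recovered. Intervals are exact 95% intervals (Poisson for a level, Clopper-Pearson for a ratio) that cover counting error only. A feature was called higher or lower when its log2 difference, cut minus uncut, reached 2 in size, among the 21688 features with at least 50 reads over both libraries. By this rule 8.25% of the features were higher in cut and 7.35% were lower, and the median difference was -0.33. Of the 8 leaf markers (chlorophyll a-b binding proteins and carbonic anhydrase), 8 had reads in both libraries, and their summed level was 191 RPM in cut against 270 RPM in uncut. The 6 genes listed as root markers, none of them at 0, summed to 563 RPM in cut against 842 RPM in uncut, and 3 of the 6 were lower in cut. CASP-like protein 1 (PGSC0003DMG400022659), of the family that builds the Casparian strip of the root endodermis, had 11 reads in cut against 915 in uncut, whereas Nramp5 (PGSC0003DMG400027964), a metal transporter on the same list, had 413 RPM in cut against 274 RPM in uncut. Without Nramp5, left out after its value was seen, the list summed to 150 RPM in cut against 568 RPM in uncut. Nramp5 and NRT1/PTR FAMILY 7.3-like (PGSC0003DMG400024120), the 2 root markers above 0, were both chosen in the 0 h comparison, which may have used the cut library. The same holds for the leaf marker carbonic anhydrase (PGSC0003DMG400006956), with 71.7 RPM in cut against 65.3 RPM in uncut. How much of the TF differences went with organ make-up was not tested. In such bulk libraries, more cells that express a gene and more RNA per cell cannot be told apart.

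Of the 4 TF genes, 3 were higher in cut by the rule of size and 0 were lower, against 8.25% of all features higher. ERF 4-like, WRKY40 and HSF C-1 passed it, and ERF 1B did not. HSF C-1 had been chosen in the 0 h comparison, which may have used the cut library. On the log2(RPM + 1) scale its call was lost, leaving 2 of the 4 higher. The differences of the 4 genes had a median of 2.45, against -0.33 over all features tested. The 4 genes, like the gene lists below, were chosen with earlier results of these data known. Their count and median are therefore a description only.

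ERF 4-like lies on chromosome 10 (4698822 to 4700272, plus strand). Its best match in the study's annotation is a RefSeq protein of the gene LOC102580681, which RefSeq also calls ERF3. It had 13238 reads in cut against 1626 reads in uncut. This corresponded to 391 RPM in cut (95% interval 384 to 398) against 42.8 RPM in uncut (40.8 to 45.0). The expression intensity was 8.61 log2 RPM in cut and 5.42 log2 RPM in uncut, a difference of 3.19 (3.12 to 3.27), or 9.13-fold. The intervals of the 2 levels lay far apart. Among all features tested, 3.79% had a larger difference. Its difference was the largest of the 4 in value, although that of WRKY40 was not separated from it by counting error.

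ERF 1B, on chromosome 11 (1002200 to 1002736, minus strand, LOC107061527 in RefSeq), is the other ethylene-responsive TF. It had 198 reads in cut against 196 reads in uncut, that is, 5.85 RPM in cut (5.06 to 6.72) against 5.16 RPM in uncut (4.47 to 5.94). The intervals of the levels overlapped. The log2 difference was 0.18 (-0.11 to 0.47), or 0.925-fold to 1.39-fold, and its interval included 0 under the deposited scaling. This depended on the scaling. Under median ratio scaling, which sets the median of all features to 0, the difference was 0.51 (0.22 to 0.81). Under upper quartile scaling it was 0.33 (0.04 to 0.62), so that both intervals lay above 0. Both take every read as separate. With reads halved, in case each pair was counted as 2 reads, the interval under the deposited scaling widened to -0.24 to 0.60. A scaling shifts an interval without widening it. With reads halved, the shift of 0.33 under the median ratio brings the low end of -0.24 above 0. The shift of 0.15 under the upper quartile leaves it below 0, so that interval then includes 0. A larger difference was found for 31.2% of the features tested.

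The 2 ethylene-responsive TFs therefore did not move alike. The difference of ERF 4-like exceeded that of ERF 1B by 3.01 log2 units (exact conditional interval 2.71 to 3.31, counting error only).

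WRKY40 lies on chromosome 8 (40861937 to 40864121, plus strand) and matched LOC102599114. It was the gene with the fewest reads in uncut, 59, against 380 reads in cut. Its level was 11.2 RPM in cut (10.1 to 12.4) against 1.55 RPM in uncut (1.18 to 2.01). On the log2 scale this was 3.49 in cut and 0.64 in uncut, a difference of 2.85 (2.45 to 3.27), or 7.22-fold. The levels did not overlap, and the whole interval of the difference was above 2. A larger difference was found for 4.78% of the features tested. Since the difference rested on 59 reads in uncut, its interval was the widest of the 4. On the log2(RPM + 1) scale, which shrinks differences of low genes, it was 2.26.

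HSF C-1, on chromosome 12 (4529741 to 4531488, minus strand, LOC102592818), had 2587 reads in cut against 705 reads in uncut. Its level was 76.4 RPM in cut (73.5 to 79.4) against 18.6 RPM in uncut (17.2 to 20.0). The log2 levels were 6.26 in cut and 4.22 in uncut, and the difference was 2.04 (1.92 to 2.16), or 4.11-fold. The levels did not overlap, but the interval of the difference included the threshold of 2, and on the log2(RPM + 1) scale the difference was 1.98 and the call was lost. It took rank 1737 of the 21688 features. Because the 0 h comparison that led to its choice may have used the cut library, its difference cannot be taken as an independent observation.

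**Figure D1:**
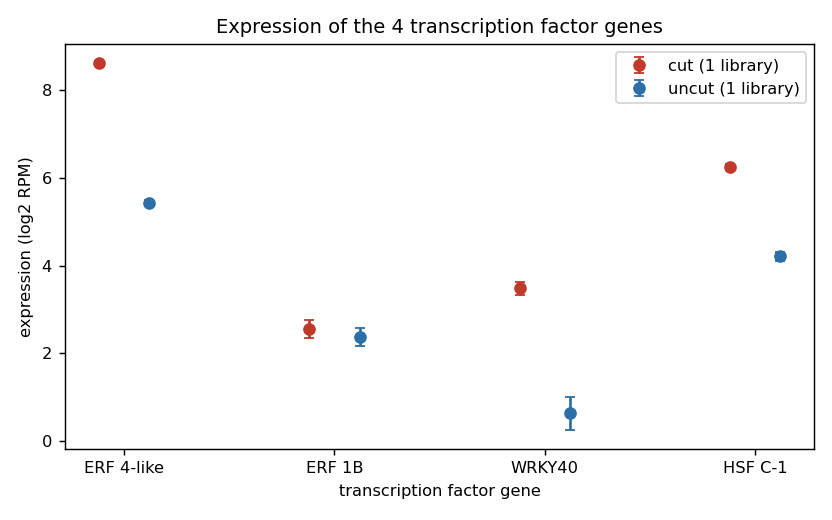
Expression (log2 RPM, y axis) of the 4 TF genes (x axis) in the cut (red, left) and uncut (blue, right) library, 1 library each, with bars for the exact 95% Poisson interval of the reads. ERF 4-like, WRKY40 and HSF C-1 lie 3.19, 2.85 and 2.04 log2 units higher in cut, while the intervals of ERF 1B overlap.

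**Figure D2:**
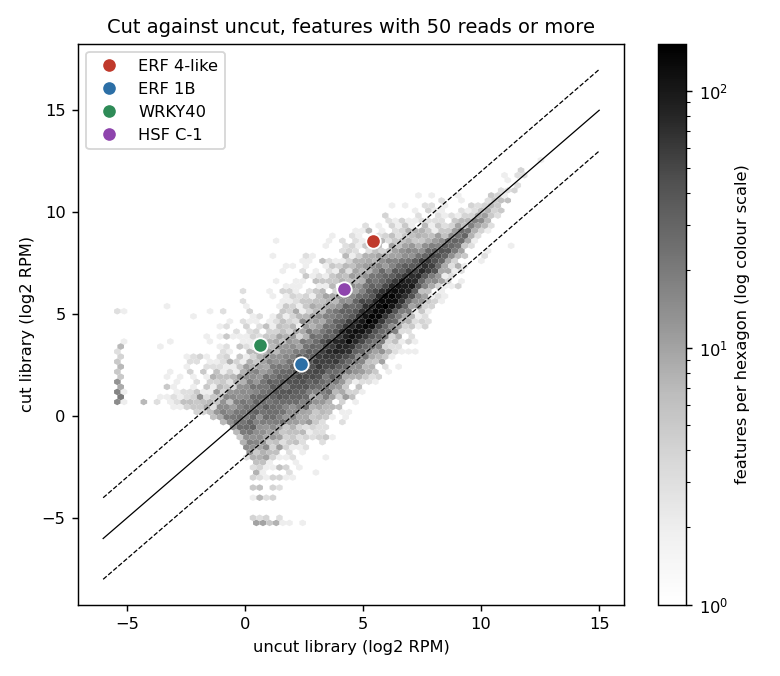
Level in cut (y axis, log2 RPM) against level in uncut (x axis, log2 RPM) for the 21688 features with at least 50 reads, with darker hexagons holding more features, the solid line marking equal levels and the dashed lines a difference of 2. ERF 4-like and WRKY40 lie above the upper dashed line, HSF C-1 on it at 2.04, and ERF 1B next to the line of equal levels.

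All 6 pairs of the 4 genes were compared for the size of their differences, and in 5 of 6 pairs the exact interval excluded 0. The exception was ERF 4-like against WRKY40, where the difference of 0.34 had an interval of -0.09 to 0.74. WRKY40 exceeded HSF C-1 by 0.81 (0.39 to 1.25), and ERF 4-like exceeded HSF C-1 by 1.15 (1.01 to 1.29). These intervals hold for the reads of these libraries and not for plantlets in general.

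The order of the levels was taken per kb of gene span, introns included, as the exon lengths behind the counts were not used here. In cut, ERF 4-like stood first with 270 RPM per kb, followed by HSF C-1 with 43.7, ERF 1B with 10.9 and WRKY40 with 5.14 RPM per kb, and no intervals of neighbours in this order overlapped. In uncut, ERF 4-like had 29.5 RPM per kb, HSF C-1 10.6 (9.86 to 11.4), ERF 1B 9.62 (8.32 to 11.1) and WRKY40 0.711 RPM per kb. With these spans the intervals of HSF C-1 and ERF 1B overlapped in uncut. The spans of the matched RefSeq genes, a choice made after seeing the data, gave the same order in both libraries but other overlaps. In uncut, HSF C-1 then had 10.8 RPM per kb and ERF 1B 5.19 RPM per kb (4.49 to 5.97), and their intervals no longer overlapped. In cut, the RefSeq span of ERF 1B (995 bp against 537 bp in the table) lowered its value in cut to 5.88, with an interval that overlapped that of WRKY40 at 5.18 RPM per kb. For ERF 4-like the RefSeq span was 919 bp against 1451 bp, which raised its value in cut to 426 RPM per kb.

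The study's annotation names 5 other ERF and WRKY genes. Of these, 0 reached a difference of 2, against 8.25% of all features higher, and all 5 lay above 0, against 36.8% of all features, with a median of 1.27. ERF017 (PGSC0003DMG400002899) had 57.9 RPM in cut against 30.0 RPM in uncut, a difference of 0.95 (0.84 to 1.06). Probable WRKY TF 31 (PGSC0003DMG400015015) had 55.0 RPM in cut against 22.8 RPM in uncut, and probable WRKY TF 51 (PGSC0003DMG401031196) had 38.4 RPM in cut against 15.3 RPM in uncut. In Arabidopsis, WRKY70 is a node between salicylic acid and jasmonate signalling. Of the 2 genes named WRKY70, that on chromosome 3 (PGSC0003DMG400020608) had 288 RPM in cut against 75.8 RPM in uncut, a difference of 1.93 (1.87 to 1.99) just under the threshold. The other, on chromosome 9 (PGSC0003DMG400029207), had 691 RPM in cut against 314 RPM in uncut, a difference of 1.14 (1.11 to 1.17). Median ratio and upper quartile scaling each moved 1 of the 5 past the threshold.

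Among the 16 regulators of other families, 15 had at least 50 reads, of which 2 were higher (13.3%), 1 was lower (6.67%) and 12 lay in between, near the 8.25% and 7.35% of all features. Of the 15, 53.3% lay above 0, against 36.8% of all features, and their median was 0.49 against -0.33. The higher ones were both named homeobox-leucine zipper protein ATHB-12-like, relatives of Arabidopsis factors induced by abscisic acid and water deficit. PGSC0003DMG400000248 had 153 RPM in cut against 4.27 RPM in uncut, a difference of 5.16, although its choice included the 0 h comparison, which may have used the cut library. PGSC0003DMG400012118 had 86.4 RPM in cut against 10.1 RPM in uncut, a difference of 3.10. The lower one was a B-box-type zinc finger gene (PGSC0003DMG400025970), with 35 reads in cut against 330 reads in uncut. The 3 genes named zinc finger protein ZAT10-like, whose Arabidopsis namesake is a repressor induced early by many stresses, differed in sign. PGSC0003DMG400021508 had a difference of 0.78, whereas PGSC0003DMG400041467 and PGSC0003DMG400011548 had differences of -0.79 and -1.01. FAMA (PGSC0003DMG400015760) and FAMA-like (PGSC0003DMG400029634), regulators of guard cell fate in Arabidopsis, stood at 1.59 and 1.26. PAR1 (PGSC0003DMG400025144) had a difference of 1.01, nodulation-signaling pathway 1-like (PGSC0003DMG400039263) of 0.85, NAC 21/22-like (PGSC0003DMG400022134) of 0.49 and scarecrow-like 3 (PGSC0003DMG400004649) of -0.28. Growth-regulating factor 1-like (PGSC0003DMG400013004), NAC 29-like (PGSC0003DMG400002824) and YABBY 1 (PGSC0003DMG400025969), the last a leaf polarity factor, lay between -1.76 and -1.35. LOB domain-containing protein 16-like (PGSC0003DMG400020069) had 6 reads in cut and 0 in uncut and was not compared.

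By size of difference among the 24 regulators tested, ERF 4-like took rank 2, WRKY40 rank 4, HSF C-1 rank 5 and ERF 1B rank 17. Over the 20 regulators other than these, 2 were higher and 1 was lower, again near the shares of all features, 8.25% and 7.35%. Of these 20, however, 13 lay above 0, against 36.8% of all features, and their median was 0.90 against -0.33. The study had chosen all of them for a response to ultrasound, 3 of the 24 in the 0 h comparison, which may have used the cut library.

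Genes around ethylene and its defence output gave no common direction. Of the 11 on this list, 9 had enough reads, with 2 higher, 2 lower and a median of 0.28, against 8.25% higher and 7.35% lower over all features. The gene for 1-aminocyclopropane-1-carboxylate synthase (PGSC0003DMG400033885), which makes the direct precursor of ethylene, was lower, with 4.31 RPM in cut against 32.5 RPM in uncut and a difference of -2.92 (-3.17 to -2.67). Defensin-like protein 1 (PGSC0003DMG400024205) was also lower, with 12 reads in cut against 238 reads in uncut. Endochitinase EP3-like (PGSC0003DMG400025063) was higher, with 1342 reads in cut against 27 reads in uncut and a difference of 5.80 (5.25 to 6.41). Pathogenesis-related protein PR-1 (PGSC0003DMG400043108) had 55.7 RPM in cut against 13.7 RPM in uncut, a difference of 2.02 (1.88 to 2.17). Its call was lost on the log2(RPM + 1) scale, and it was chosen in the 0 h comparison, which may have used the cut library. Acidic endochitinase Q (PGSC0003DMG400001529), chitinase 2-like (PGSC0003DMG400015523), STH-2-like (PGSC0003DMG402001494), phenylalanine ammonia-lyase (PGSC0003DMG402021549) and probable linoleate 9S-lipoxygenase 5 (PGSC0003DMG400010859) lay between -0.49 and 1.25. A basic PR1-like gene (PGSC0003DMG400005112) had 0 reads in both libraries, and STH-2 (PGSC0003DMG400001550) had 1 read in cut and 15 in uncut.

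Of 6 genes of early stress signalling, 3 were higher and 0 were lower, against 8.25% and 7.35% of all features, and all 6 lay above 0, against 36.8% of all features, with a median of 3.05. The list was assembled with these values known, so its direction is a description only. The 3 are U-box proteins, a class of E3 ubiquitin ligases. U-box 19-like (PGSC0003DMG400024491) had 3082 reads in cut against 30 reads in uncut, a difference of 6.85 (6.33 to 7.42). The study chose it in the 0 h comparison, which may have used the cut library. U-box 21-like (PGSC0003DMG400029464) had 1447 reads in cut against 40 reads in uncut, a difference of 5.34. PUB23-like (PGSC0003DMG400021325), whose Arabidopsis namesake damps pattern-triggered immunity, had 117 RPM in cut against 6.01 RPM in uncut, a difference of 4.28. The calcium-binding protein CML19 (PGSC0003DMG400040538) and NIM1-INTERACTING 2-like (PGSC0003DMG400005762) stayed below the threshold at 1.82 and 1.71, but passed it under median ratio scaling, which called 5 of the 6 genes higher. Respiratory burst oxidase homolog B (PGSC0003DMG400024754), which makes extracellular superoxide, had a difference of 0.34. Heat stress TFs act on chaperone genes, but only 2 DnaJ-type genes were on the list, with differences of 1.36 (PGSC0003DMG400020433) and 0.24 (PGSC0003DMG400006735).

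**Figure D3:**
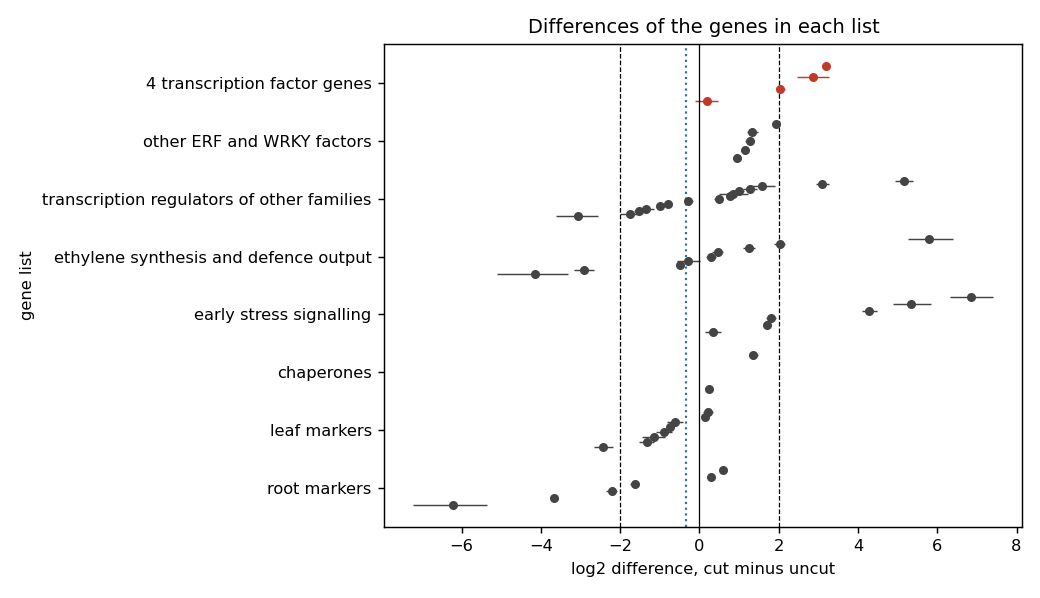
Log2 difference, cut minus uncut (x axis), of each gene with at least 50 reads, by gene list (y axis), with bars for the exact 95% interval, dashed lines at -2 and 2 and the dotted line at the median of all features, -0.33. The 4 TF genes are in red, the 5 other ERF and WRKY genes all lie between 0.95 and 1.93, and 3 of the 6 root markers lie below -2.

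The genomic surroundings of the 4 genes were examined over the 5 features on each side. No feature of the table overlapped any of the 4 genes, so that their reads were not shared with an overlapping gene. Of the 40 neighbours, 25 had at least 50 reads, with 1 higher, 3 lower and a median of -0.27, against 8.25% higher and 7.35% lower over all features. Around ERF 4-like, 6 neighbours were tested, and they lay between -0.77 and 0.55, against 3.19 for the gene itself. Its nearest neighbour, 2999 bp away (PGSC0003DMG400022808), had a difference of -0.50. The 6 tested neighbours of HSF C-1 ranged from -2.35 to 1.74, and the 6 of ERF 1B from -2.01 to 1.19. The 7 tested neighbours of WRKY40 were the most spread, from -2.21 to 2.87. The nearest of these, 3.63 kb away (PGSC0003DMG400007374), was lower, with 772 reads in cut against 4009 reads in uncut. The higher one, 28.9 kb away (PGSC0003DMG400007385), had 111 reads in cut against 17 reads in uncut. The study's annotation names neither.

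**Figure D4:**
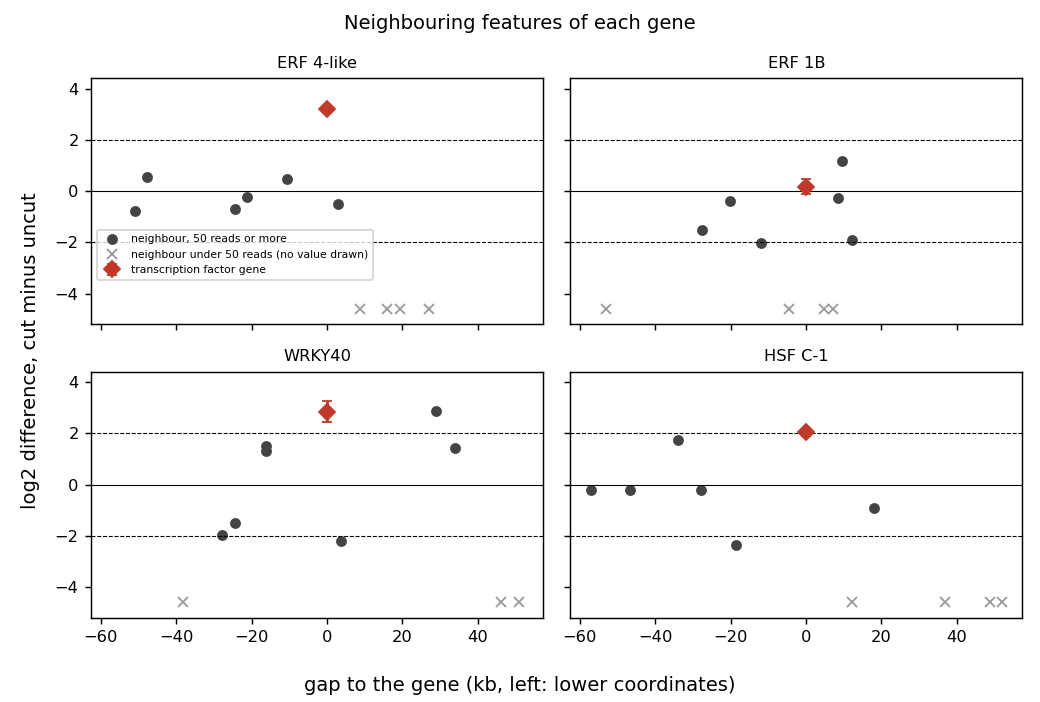
Log2 difference, cut minus uncut (y axis), of the features next to each TF gene against the gap in kb (x axis), with the gene as a red diamond at 0 and its exact 95% interval, dashed lines at -2 and 2, and crosses at the bottom for neighbours under 50 reads, which are drawn without a value. ERF 4-like at 3.19 stands apart from neighbours between -0.77 and 0.55.

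Among the 329 other genes named in the study's annotation with at least 50 reads, those with the most similar pair of levels were sought by Euclidean distance between the log2 levels of the 2 libraries. For ERF 4-like it was F-box protein At2g27310 (PGSC0003DMG400026346, distance 0.484), with log2 levels of 8.54 in cut and 5.90 in uncut, followed by histone H3.v1-like (PGSC0003DMG400010759, 0.819). For ERF 1B the nearest were 7-deoxyloganetin glucosyltransferase-like (PGSC0003DMG400017768, 0.242) and chitinase 2-like (0.332). For WRKY40 they were cytochrome P450 98A2-like (PGSC0003DMG400007180, 0.360), with 296 reads in cut against 59 reads in uncut, and 11-beta-hydroxysteroid dehydrogenase 1B-like (PGSC0003DMG400028960, 0.653). For HSF C-1 they were CML19 (0.313) and an uncharacterized gene (PGSC0003DMG400024972, 0.358). With 2 libraries, these distances describe similar levels only.

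The scales and scalings tried left the direction of all 4 genes as it was. Median ratio scaling, which shifts every difference by 0.33, gave 3.52 for ERF 4-like, 0.51 for ERF 1B, 3.19 for WRKY40 and 2.37 for HSF C-1, and called 10.2% of all features higher. Halving the reads, in case each pair was counted as 2 reads, widened the interval of WRKY40 to 2.27 to 3.44. It widened that of HSF C-1 to 1.87 to 2.22 and that of ERF 1B to -0.24 to 0.60. Halving was applied to the 4 genes under the deposited scaling only, apart from the shifts described for ERF 1B. The intervals of other genes and of pairs of genes would also widen and were not recomputed.

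**Figure D5:**
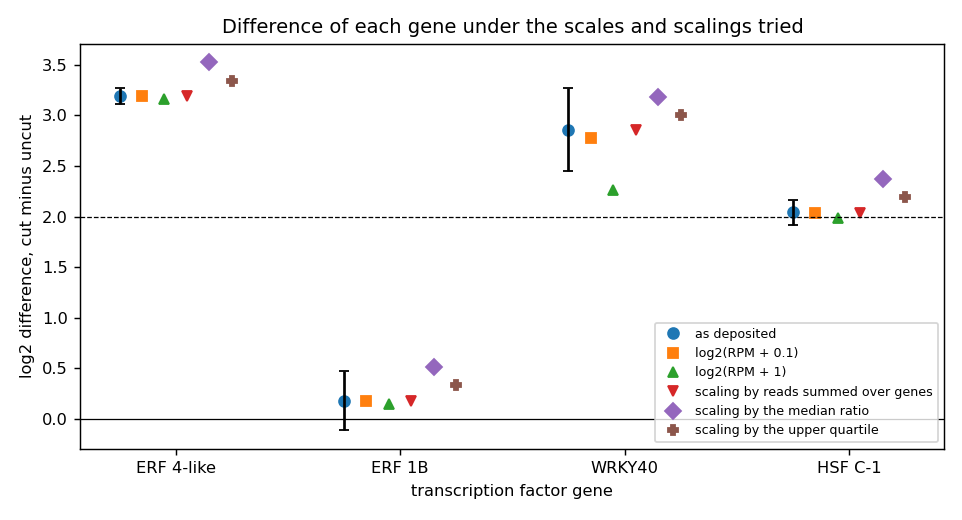
Log2 difference, cut minus uncut (y axis), of the 4 TF genes (x axis) as deposited, with the exact 95% interval, and under 2 other log scales and 3 other scalings, with the dashed line at 2. ERF 4-like and WRKY40 stay above 2 throughout, ERF 1B reaches at most 0.51, and HSF C-1 crosses the line only on the log2(RPM + 1) scale, at 1.98.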

How the data were processed

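Per the study's methods, the authors trimmed reads with Trim Galore 0.5.0, aligned pairs to SolTub_3.0 with HISAT2 2.1.0 and kept unique alignments. Exonic reads were summed per gene in SeqMonk, scaled by library total, and deposited as log2 RPM. Whether strand was used is not given in the sources used here. A gene without reads was deposited at the value of 0.9 read, which gave the totals, 33850938 reads in cut and 37955486 in uncut. All values tested (23096 in cut, 22327 in uncut) were whole numbers of reads to within 0.05. A count of 0 allows 3 reads, or 0.0886 RPM in cut and 0.0790 RPM in uncut. Reads summed over genes exceeded the totals (60081924 in cut and 67314360 in uncut), so both reads of a pair may have been counted.

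With 1 library per condition no test was run. The exact intervals, the fixed rule of size and the recovery of known changes were run on simulated reads as a check of the code. The simulated reads were independent Poisson counts, without variation between plantlets or pairs counted as 2 reads. The simulation therefore says nothing on how the rule or the intervals behave under either. Intervals between pairs of genes are conditional intervals of the odds ratio. The genes and lists were chosen with earlier results of these data known. Named were the 4 genes, every gene of the lists, and for each of the 4 the 2 annotated genes nearest in level. Neighbours with values given by identifier were chosen after seeing the data. Alternatives were log scales, scalings, read minima and differences. Coordinates are those of the table. All 4 genes were matched to RefSeq (SolTub_3.0) through protein accessions of the study's annotation, which gave symbols and spans only. Values of other sampling times were not analysed here. Computation used scipy 1.17.1 and numpy 2.4.6, tables pandas 2.3.3 and plots matplotlib 3.10.9, all under Python 3.11.15.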

Additional observations from a re-analysis of the deposited data

How the results depend on the processing

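The log2 differences of all 4 genes kept their sign under the 5 other scales and scalings. Scaling by the median ratio moved ERF 4-like to 3.52, ERF 1B to 0.51 (interval above 0) and HSF C-1 to 2.37, and scaling by the upper quartile moved ERF 4-like to 3.34 and HSF C-1 to 2.19, since a scaling shifts every difference alike. On the log2(RPM + 1) scale WRKY40 stood at 2.26 and HSF C-1 at 1.98, which ended the call of HSF C-1. Over all features, 1789 were higher and 1595 lower. Without a read minimum these became 3007 and 2486, with a difference of 1 they became 3550 and 4881, with a difference of 3 they became 937 and 528, and 857 were lower on the log2(RPM + 1) scale. The share of higher features among those called was 52.9%, and 66.8% under the median ratio. Depth limits WRKY40 most, through its 59 reads in uncut. No paired analysis was possible because there was 1 library per condition.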
